A study of Homo sapiens with 4 samples.

Results

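Transcripts of the actin cytoskeleton and of focal adhesions, the protein assemblies that tie actin filaments to integrins at the cell surface, were described in Huh-7 cells with and without transforming growth factor beta (TGF-beta). Huh-7 is a human hepatocellular carcinoma line. A list of 45 genes was used, and a gene was measured where a probe set of the array named it and no other gene, with the brightest such probe set taken for each gene. This gave 41 of the 45 genes, among 12162 genes on the same arrays. TPM3, FLNA and ACTR2 were not analysed here, nor was MYL12A, whose probe sets also name other genes.

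The untreated group held 2 arrays and the treated group 2, the latter from cells incubated with TGF-beta for 48 h. Neither the dose nor a vehicle for the untreated cells is given in the sources used here. A harvest time is recorded for the TGF-beta arrays only, so the untreated cells may not be matched in time. All 4 arrays came from the same line in the same serum-containing medium, and RNA was taken from confluent dishes. The labels do not say whether the 2 arrays of a group are separate cultures, so the spread between them may be technical, and 1 line of tumour cells stands for hepatocytes only in part. 
The 6 measured hepatocyte markers, among them ALB, TTR and SERPINA1, had intensities from 1088 to 35746, where the median over all probe sets of an array was 50.1 to 51.0. Of these, APOA1 was called higher (log2 fold change 0.74 ± 0.11, SE, adjusted p = 0.0378, limma) and TTR lower (-0.63 ± 0.11, adjusted p = 0.0471). The 4 endothelial markers ran from 19.9 to 51.8. Of 6 fibroblast markers the 3 collagens and DCN ran from 31.5 to 60.6 and had negative log2 fold changes, from -0.53 (DCN, adjusted p = 0.128) and -0.44 (COL1A1, adjusted p = 0.0982) to -0.098 (COL3A1). LUM stood at 6692 to 7292, and PDGFRA was called higher (0.76 ± 0.12, adjusted p = 0.0395). Of 3 measured leukocyte markers PTPRC was at 28.3 to 31.7, CD3D at 285 and 204 untreated against 154 and 163 treated (log2 fold change -0.61, adjusted p = 0.109), and CD14, at 75.6 and 75.4 untreated against 146 and 157 treated, was called higher (adjusted p = 0.0168, limma). The part of these differences in the results on actin genes was not tested.

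Actin filaments grow from monomers, are branched by the ARP2/3 complex, stabilised by tropomyosins, bundled by alpha-actinins and pulled on by non-muscle myosin II. At focal adhesions, talin and vinculin connect them to integrins, and LIM-domain proteins such as zyxin gather where they are under tension. Many of these genes are known targets of serum response factor (SRF), which binds a DNA element called the CArG box, and of its coactivators, which sense free actin monomers. In epithelial cells TGF-beta is known for inducing stress fibres and, where cells take on mesenchymal traits, for raising alpha-smooth muscle actin, transgelin and calponin.

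After TGF-beta, 0 of the 41 measured genes passed an adjusted p under 0.05 (limma, adjusted over all 12162 genes), where 0.658% of all genes were called higher and 0.567% lower. The values leaned upward by a small amount. The median log2 fold change of the members was 0.10 and that of all genes -0.0062, and 32 of the 41 (78.0%) had a positive value against 48.5% of all genes. The largest positive values were those of ACTN4 and MYH9, 0.49 and 0.46, and the most negative was that of PFN2, -0.45. For all 41 the 95% interval of the log2 fold change, taken gene by gene, lay within a 2-fold difference. The widest bounds were -0.71 (PFN2) and 0.79 (MYH9). These intervals bound the array signal, and in the 7 members with a mean log2 intensity under 6 a change in transcript can be understated.

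At an unadjusted p under 0.05, 10 members were higher and 1 was lower, which is 24.4% and 2.44% of the members against 9.36% and 8.6% of all genes. The 10 were ACTN4, ACTN1, PDLIM1, LASP1, MYH9, CFL1, EZR, ACTG1, PFN1 and ARPC1B, and the 1 lower was PFN2. Dim probe sets seldom reached such a p in either direction, so the share was also taken over the 6368 genes with a mean log2 intensity of at least 6. There, 10 of 34 members were higher (29.4%) and 1 lower, against 14.8% higher and 13.3% lower over all such genes. Both TGF-beta arrays lay above both untreated arrays in 14 members (34.1%, all genes 23.3%) and below both in 7 (17.1%, all genes 25.9%). The counts moved with the arrays used. Without untreated array 2, 6 members were higher at an unadjusted p under 0.05, where 10.3% of all genes were. Without TGF-beta array 1 there were 4 (all genes 5.46%), without TGF-beta array 2 there were 6 (all genes 6.96%), and without untreated array 1 there were 11 (all genes 9.32%). Over the 4 comparisons of 1 TGF-beta array with 1 untreated array, the median log2 difference of the members was 0.048 to 0.16, and that of all genes -0.012 to 0.0014. In these comparisons 53.7% to 75.6% of the members were positive, against 47.7% to 50.3% of all genes. The smallest member values, 0.048 and 53.7%, were those of TGF-beta array 1 minus untreated array 1. Within groups, the member median of array 2 minus array 1 was 0.043 for TGF-beta (all genes 0.0043) and -0.0073 for untreated (all genes -0.019).

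**Figure D1:**
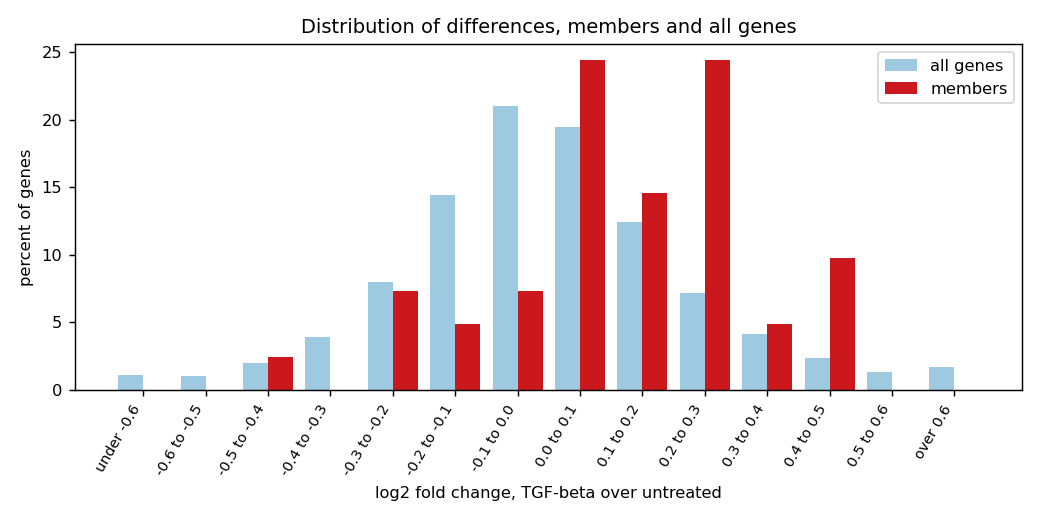
Percent of genes (vertical axis) in each range of log2 fold change, TGF-beta over untreated (horizontal axis), for all 12162 genes (blue) and the 41 measured members (red). Between 0.2 and 0.3 lay 24.4% of the members and 7.15% of all genes, and no member lay beyond 0.5 or below -0.5.

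Promoters were read from a RefSeq table of build GRCh38.p14, which held 36 of the 41 measured members in 59 windows, counting the 250 bases before each annotated start. The 5 others are ACTB, MYL9, TAGLN, PFN2 and ARPC1B. A CArG box, in its strict form, was present on 7 of the 59 windows (11.9%) and in 5 of the 36 genes (13.9%). Over all measured genes in the table, 1.22% of the 14292 windows and 1.71% of the 9717 genes held it. Other forms of the box and bases farther from the start were not searched, and binding of SRF was not tested. The 6 separate matches are printed because they mark which members hold the strict form in the bases searched. The box is in capitals, with 10 bases on each side.
ACTG1: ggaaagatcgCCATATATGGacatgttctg
TPM4: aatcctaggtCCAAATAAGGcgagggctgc
ACTN1: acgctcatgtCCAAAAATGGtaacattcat
CNN2: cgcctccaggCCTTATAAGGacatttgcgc
FHL2, nearer start: gcgtgcatctCCTTATATGGtcaaatgaca
FHL2, other start: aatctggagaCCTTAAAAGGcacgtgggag

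The stretch of ACTG1 is chr17:81512874-81512903 on the minus strand, with the box beginning 94 bases before the start. That of TPM4 is chr19:16067355-16067384 (plus strand, 173 bases before), that of ACTN1 chr14:68977718-68977747 (minus strand, 171 bases before) and that of CNN2 chr19:1026509-1026538 (plus strand, 89 bases before). The stretches of FHL2, at different start sites of the gene, are chr2:105399091-105399120 (minus strand, 59 bases before) and chr2:105438595-105438624 (minus strand, 85 bases before). The log2 fold changes of these 5 genes were 0.28 (ACTG1), -0.29 (TPM4), 0.44 (ACTN1), 0.22 (CNN2) and 0.16 (FHL2). Their median was 0.22 and that of the 31 members whose windows had no match 0.093. Of the 5 carriers of a box 4 had positive values, TPM4 being negative, and of the 31 others 24 did. SRF itself had intensities of 37.1 and 37.0 untreated against 43.0 and 41.6 treated, a log2 fold change of 0.19 ± 0.10 (SE) and an adjusted p of 0.39. The letters GGAATG, which TEAD factors can bind, were found on either strand in the windows of 11 of the 36 members (30.6%, 13.7% of all measured genes), whose median was 0.10 against 0.17 in the rest. The SMAD palindrome GTCTAGAC was found in 0 of the 36 and in 0.216% of all measured genes.

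Intensities are given array by array, replicate 1 and then 2, and each log2 fold change is TGF-beta over untreated with its SE. Among the actins, the monomers of the filament, ACTG1 (cytoplasmic gamma-actin) was higher on both TGF-beta arrays, while ACTB (beta-actin) and ACTA2 (alpha-smooth muscle actin) overlapped between the groups. The intensities of ACTG1 were 15017 and 15394 untreated against 18531 and 18302 treated. The log2 fold change of ACTG1 was 0.28 ± 0.10 (SE), with an adjusted p of 0.222. Those of ACTB were 10444 and 11975 untreated against 12283 and 11685 treated, and untreated array 2 lay between the TGF-beta arrays. ACTB had a log2 fold change of 0.099 ± 0.12 and an adjusted p of 0.724. ACTA2, the classical marker of myofibroblasts, read 40.9 and 39.5 untreated against 39.8 and 45.0 treated, below the median of all probe sets on every array. ACTA2 had a log2 fold change of 0.074 ± 0.11 (95% interval -0.19 to 0.34). At that intensity a probe set has little room to fall, and a small increase can be understated.

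All 10 probe sets of ACTB and ACTG1 carried the suffix x, by which the manufacturer marks possible cross-hybridisation, and both genes have close relatives and pseudogenes, so their signals may not be separate. The other 7 of ACTG1 gave log2 fold changes of 0.17 to 0.32, all positive, and the other one of ACTB gave 0.097. Within arrays, the log2 ratio of ACTG1 to ACTB was 0.52 and 0.36 untreated against 0.59 and 0.65 treated.

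Tropomyosins, which wrap along the filament and regulate myosin access, gave no common direction. TPM4 was lower on both TGF-beta arrays, with intensities of 2911 and 2944 untreated against 2127 and 2679.8 treated. Its log2 fold change was -0.29 ± 0.13 (SE, adjusted p = 0.307), -0.13 without TGF-beta array 1 and -0.46 without TGF-beta array 2, and its other probe set gave -0.21. TPM1 overlapped between groups at 3545 and 3349 untreated against 3633 and 3494 treated, a log2 fold change of 0.048 ± 0.11. Its other 3 probe sets gave -0.14, 0.061 and -0.080, so the sign differed between probe sets. TPM2 stood at 2119.5 and 2141 untreated against 2686 and 2129 treated, so that only TGF-beta array 1 lay apart from the untreated arrays. Without that array the log2 fold change of 0.17 ± 0.13 became -0.0012.

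The cross-linkers ACTN1 and ACTN4, non-muscle alpha-actinins that bundle filaments and link them to adhesions, were higher on both TGF-beta arrays with every probe set. ACTN4 read 439 and 416 untreated against 600.1 and 598 treated, which is 1.40-fold higher. All 3 ACTN1 probe sets pointed the same way, and the brightest read 309 and 334 untreated against 429.8 and 443 treated, 1.36-fold higher. In both genes the gap between groups was several times the gap between arrays of a group. The log2 fold changes were 0.49 ± 0.10 for ACTN4 (SE, adjusted p = 0.0688) and 0.44 ± 0.11 for ACTN1 (adjusted p = 0.0912), and neither passed. The other probe sets of ACTN1 gave 0.60 and 0.31. Leaving out 1 array at a time kept the value of ACTN4 between 0.45 and 0.53 and that of ACTN1 between 0.39 and 0.50. ACTN4 had the smallest adjusted p of the 41.

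**Figure D2:**
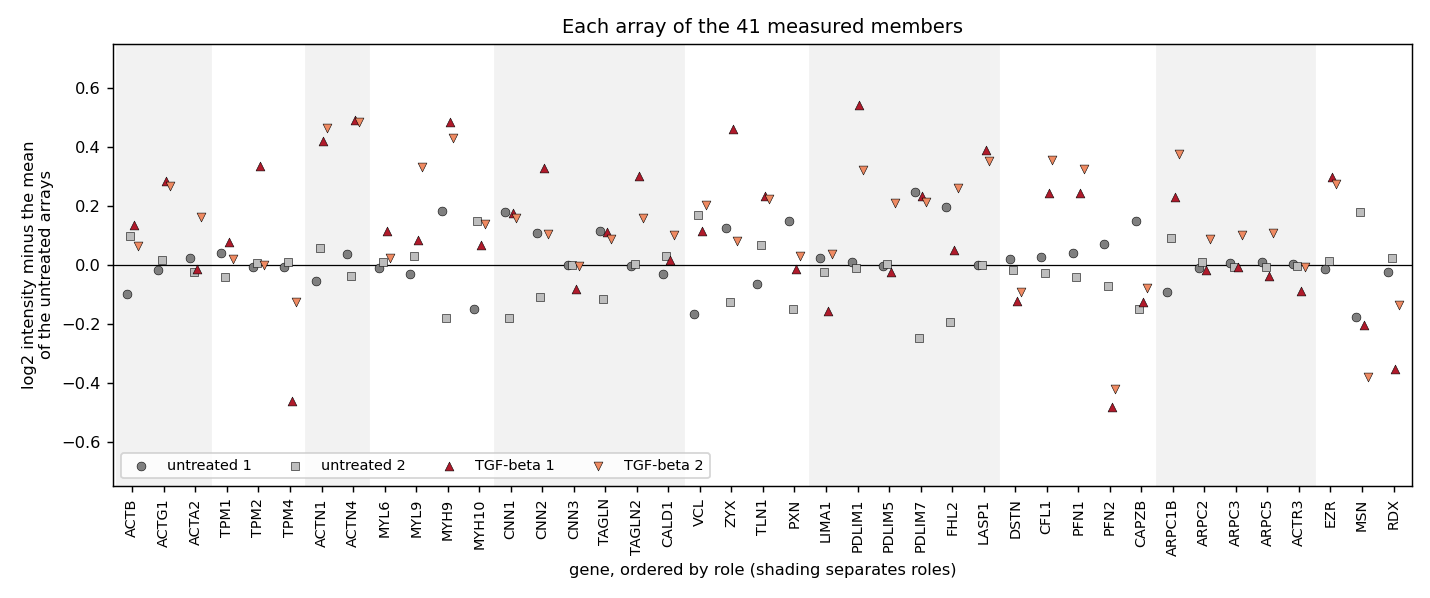
Log2 intensity of each array minus the mean of the 2 untreated arrays (vertical axis) for each measured member (horizontal axis, ordered by role, with shading that separates roles). Grey marks are untreated arrays and red or orange marks TGF-beta arrays. ACTN4, ACTN1, LASP1 and PDLIM1 are among the members with both TGF-beta arrays above both untreated arrays by more than the untreated arrays differ. ACTG1, EZR and CFL1 are others. PFN2, TPM4 and RDX are among those with both below in the same way, while 20 members overlap.

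Non-muscle myosin II, the motor that contracts the filaments, had positive values in the 4 measured members, while MYL12B, a regulatory light chain from the further list, read 9220.1 and 8982 untreated against 8739 and 8821 treated and had -0.052 ± 0.10 (SE, on the log2 scale). MYH9, the heavy chain of myosin IIA, read 70.3 and 54.7 untreated against 86.8 and 83.6 treated, near the dim end. Both treated arrays were above both untreated ones, although the untreated arrays differed from each other by more than the nearest arrays of different groups did. Its log2 fold change was 0.46 ± 0.14 (SE, adjusted p = 0.146). Without untreated array 1 it was 0.64 and without untreated array 2 it was 0.28, each in a fit that rests on 1 untreated array. MYH10, the heavy chain of myosin IIB, overlapped at 2309.9 and 2843 untreated against 2686 and 2818 treated. Its log2 fold change was 0.10 ± 0.13, and its dimmer second probe set gave -0.18. MYL6, the essential light chain, read 11423 and 11605 untreated against 12458 and 11696 treated, a log2 fold change of 0.068 ± 0.11. MYL9, a regulatory light chain of smooth muscle and non-muscle myosin, was dim at 29.5 and 30.8 untreated against 32.0 and 38.0 treated, with a log2 fold change of 0.21 ± 0.12 (adjusted p = 0.433). MYLK, the kinase that activates regulatory light chains such as MYL9, overlapped at 203 and 362 untreated against 314 and 254 treated, and its log2 fold change of 0.061 was -0.36 without untreated array 1.

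Calponins, transgelins and caldesmon bind filaments and restrain myosin, and CNN1 and TAGLN mark smooth muscle. Both were dim and overlapped between groups. CNN1 read 53.5 and 41.7 untreated against 53.4 and 52.8 treated, and TAGLN read 32.5 and 27.7 untreated against 32.4 and 31.9 treated. Their log2 fold changes were 0.17 ± 0.14 and 0.10 ± 0.12 (SE), with adjusted p of 0.592 and 0.728, and both turned slightly negative without untreated array 2 (-0.011 and -0.015). The broadly expressed relatives were all above the median intensity of their arrays. TAGLN2 was higher on both TGF-beta arrays, at 1951 and 1961 untreated against 2414 and 2182 treated. Its log2 fold change was 0.23 ± 0.11 (adjusted p = 0.326), and its other probe set gave 0.26. CNN2 had 166 and 143 untreated against 193 and 166 treated, where the lower treated array lay just under the higher untreated one, and a log2 fold change of 0.22 ± 0.13. CNN3, at 1447 and 1448 untreated against 1368 and 1444 treated, had -0.042 ± 0.10. CALD1 (caldesmon) read 5013 and 5236 untreated against 5184 and 5499 treated with 0.06 ± 0.11, and its other 7 probe sets ran from -0.13 to 0.30.

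In the list of 8 smooth muscle and myofibroblast markers, which includes ACTA2, TAGLN and CNN1, intensities ran from 25.2 to 191 over all arrays. Limma called 0 of the 8, where it called 0.658% of all genes higher and 0.567% lower. An unadjusted p under 0.05 was reached by 1 marker, against 9.36% (higher) and 8.6% (lower) of all genes. With 8 genes, such counts cannot tell an unchanged set from a changed one. The marker higher at that p was SMTN (smoothelin), at 0.55 on the log2 scale with an adjusted p of 0.0720.

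The 4 members of the focal adhesion plaque had small positive values and none passed, while the 13 measured adhesion genes of the further list were split, 6 positive and 7 negative, with a median log2 fold change of -0.011. TLN1 (talin, which activates integrins) was dim at 35.6 and 39.1 untreated against 43.9 and 43.6 treated, yet both treated arrays were above both untreated ones. TLN1 had a log2 fold change of 0.23 ± 0.11 (SE, adjusted p = 0.324). ZYX (zyxin) read 142 and 119.7 untreated against 179.9 and 138 treated on its brightest probe set and overlapped, with 0.27 ± 0.16 (adjusted p = 0.423), which was 0.080 without TGF-beta array 1 and 0.46 without TGF-beta array 2. Its second probe set, with intensities of 77.2 and 64.4 against 107 and 94.2, did not overlap and gave 0.51 ± 0.13 (SE, adjusted p = 0.113 over all probe sets). VCL (vinculin) read 1338 and 1688 untreated against 1626 and 1730.4 treated. Untreated array 1 was the low one there, and the log2 fold change of 0.16 ± 0.14 was -0.0091 without it. PXN (paxillin, a scaffold for adhesion kinases) was dim at 42.4 and 34.5 untreated against 37.9 and 39.0 treated and had 0.0084 ± 0.13.

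LIM-domain and PDZ-LIM proteins, adaptors on stress fibres, included 2 of the 5 members with the smallest p. PDLIM1, which binds alpha-actinin, read 1964 and 1937 untreated against 2839 and 2441 treated, 1.35-fold higher with the treated arrays clear of the untreated ones. LASP1, a LIM and SH3 protein of adhesions, gave almost the same reading on both untreated arrays, 1307 and 1307, and 1714 and 1669 after TGF-beta. The log2 fold changes were 0.43 ± 0.12 for PDLIM1 (SE, adjusted p = 0.112) and 0.37 ± 0.10 for LASP1 (adjusted p = 0.117). FHL2 overlapped at 636 and 486 untreated against 576 and 666 treated, and its log2 fold change of 0.16 ± 0.15 was -0.039 without untreated array 2. PDLIM7 (enigma) read 83.4 and 59.2 untreated against 82.6 and 81.4 treated, where untreated array 2 was low, and had 0.22 ± 0.16. Of its other 4 probe sets, all dim and all positive, 1 gave 0.42 ± 0.13. PDLIM5, at 2182 and 2193 untreated against 2151 and 2530.0 treated, had 0.093 ± 0.12 on its brightest probe set, and its other 7 gave -0.24 to 0.20. LIMA1 (EPLIN, which stabilises filaments) read 776 and 750.0 untreated against 685 and 782 treated, overlapping, with -0.06 ± 0.11.

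**Figure D3:**
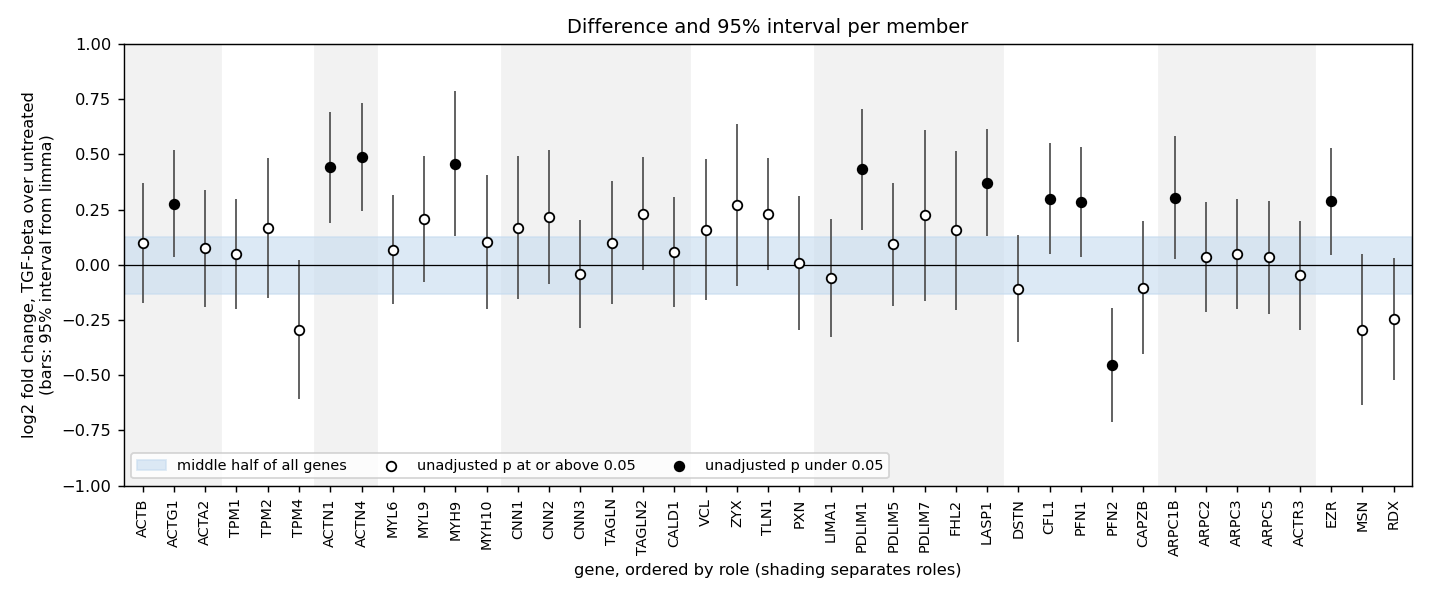
Log2 fold change, TGF-beta over untreated (vertical axis), with its 95% interval from limma for each measured member (horizontal axis, by role). Filled points have an unadjusted p under 0.05, and the blue band is the interquartile range of all genes. ACTN1, ACTN4, MYH9, PDLIM1 and LASP1 lie between 0.37 and 0.49, and PFN2 is at -0.45.

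Genes of filament turnover, which sever, cap or feed actin, had values of opposite sign among close relatives. PFN1 (profilin 1, which charges monomers for assembly) read 4156 and 3934 untreated against 4788 and 5067 treated, and PFN2, its relative most abundant in neurons, read 1868 and 1691 untreated against 1271 and 1328 treated. PFN1 was above the untreated range on both treated arrays and PFN2 below it on both. Their log2 fold changes were 0.28 ± 0.11 (SE, adjusted p = 0.224) and -0.45 ± 0.11 (adjusted p = 0.0921). The within-array log2 ratio of PFN1 to PFN2 was 1.15 and 1.22 untreated against 1.91 and 1.93 treated, a difference of 0.74. CFL1 (cofilin 1, which severs filaments) stood at 11883 and 11448 untreated against 13813 and 14918 treated, a log2 fold change of 0.30 ± 0.11 (adjusted p = 0.208). DSTN (destrin), of the same family, stood at 12399 and 12083 untreated against 11238 and 11487 treated, with -0.11 ± 0.10. Its 95% interval of -0.35 to 0.13 included 0, and the other probe set of DSTN gave -0.042. The ratio of CFL1 to DSTN differed by 0.41 on the log2 scale between groups. These pairs were chosen after their values were seen and their ratios were not tested. CAPZB, the beta subunit of the capping protein, overlapped at 2944 and 2394 untreated against 2433 and 2511 treated, and its probe sets ran from -0.10 to 0.17.

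The ARP2/3 complex, which starts branches, was near 0 in 4 of its 5 measured members. ARPC2 read 7657 and 7776 untreated against 7623 and 8207 treated, ARPC3 3674 and 3642 untreated against 3642 and 3924 treated, and ARPC5 3503 and 3464 untreated against 3392 and 3754 treated. ACTR3, an actin-related core subunit, read 7416 and 7378 untreated against 6959 and 7358 treated. The arrays overlapped in the ARPC subunits, and in ACTR3 the treated arrays were just below. Log2 fold changes were 0.036 ± 0.11 (ARPC2), 0.048 ± 0.11 (ARPC3), 0.035 ± 0.11 (ARPC5) and -0.048 ± 0.10 (ACTR3), and 95% intervals ran from -0.29 to 0.20 for ACTR3 and from -0.20 to 0.30 for ARPC3, the most negative and the most positive of the 4. ARPC1B, a regulatory subunit, lay higher, with intensities of 1278 and 1452 untreated against 1599 and 1769 treated. Its treated arrays lay above its untreated arrays, and its log2 fold change was 0.30 ± 0.12 (adjusted p = 0.244). From the further list, ARPC1A, the close relative of ARPC1B, read 3328 and 3446 untreated against 3285 and 3296 treated and had -0.042 ± 0.10, and ARPC4 overlapped at 382 and 335 untreated against 473 and 327 treated and had 0.14 ± 0.18. Whether ARPC1B differed from the other subunits was not tested.

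Ezrin, radixin and moesin link filaments to the plasma membrane, ezrin being the form typical of epithelia. EZR read 806 and 822 untreated against 1001 and 984 treated, with both treated arrays above. Its log2 fold change was 0.29 ± 0.10 (SE, adjusted p = 0.208), and its other 5 probe sets gave 0.020 to 0.41, all positive. RDX read 2416 and 2497 untreated against 1923 and 2236 treated, with both treated arrays below, at -0.24 ± 0.12 (adjusted p = 0.333). Of its other 2 probe sets, the brighter gave -0.36 ± 0.14 and the dimmer one 0.023 ± 0.14 (SE). MSN, the form known from leukocytes and endothelium, was dim at 22.4 and 28.7 untreated against 22.0 and 19.5 treated, with the treated arrays lowest, and had -0.29 ± 0.15 (adjusted p = 0.343), which was -0.12 without untreated array 2 and -0.47 without untreated array 1. The within-array log2 ratio of EZR to RDX was -1.58 and -1.60 untreated against -0.94 and -1.18 treated, a difference of 0.53 that was not tested.

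Several probe sets were present for 21 of the 41 members, and 14 of the 21 had the same sign on each. In a separate limma fit of all 19724 probe sets that name 1 gene, 0 of the 54 other probe sets of members passed an adjusted p under 0.05, where 0.887% of all such probe sets passed. At an unadjusted p under 0.05, 7 were higher and 1 lower, against 8.39% and 8.12% of all probe sets. The 7 belonged to ACTN1 (2 of them), ACTG1, TAGLN2, ZYX, PDLIM7 and EZR, and the 1 lower to RDX. ACTN1, ACTG1 and EZR thus had more than 1 probe set on the same side of that threshold, while probe sets of 1 gene share their arrays and are not separate evidence.

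**Figure D4:**
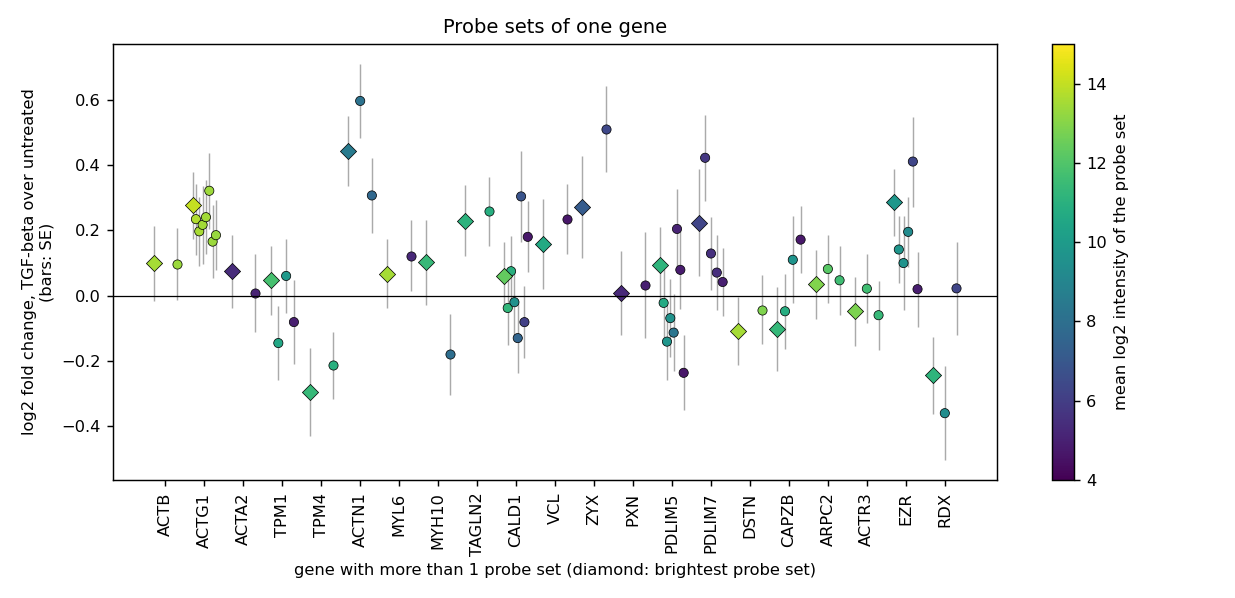
Log2 fold change of every probe set, TGF-beta over untreated (vertical axis, bars are SE), for the 21 members with more than 1 probe set (horizontal axis). The diamond is the brightest probe set and the colour gives the mean log2 intensity. All probe sets of ACTG1, ACTN1, EZR, TAGLN2 and ZYX lie above 0, and those of CALD1, PDLIM5 and TPM1 lie on both sides.

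A further list of 64 actin regulators and adhesion genes, of which 53 were measured, held 1 gene called higher and 1 called lower. Counting those with an unadjusted p under 0.05, 9 were higher (17.0%) and 3 lower, against 9.36% and 8.6% of all genes. Over genes with a mean log2 intensity of at least 6 the shares were 14.8% and 13.3%. That limit was not applied to the list, which also holds dimmer genes such as SRF. The median log2 fold change was 0.082 (all genes -0.0062), and 36 of the 53 had a positive value, against 48.5% of all genes. RHOB rose 1.74-fold, from 238 and 241 to 410.4 and 424 (log2 fold change 0.80 ± 0.10, adjusted p = 0.0256). LCP1 (L-plastin, an actin bundler of leukocytes that many tumours also make) fell from 566 and 532 to 291 and 349, a log2 fold change of -0.78 ± 0.12 with an adjusted p of 0.0404. Without TGF-beta array 1 the adjusted p were 0.249 for RHOB and 0.288 for LCP1, and without TGF-beta array 2 they were 0.199 and 0.197, where limma called 0 of the 12162 genes, with 664 and 846 higher at an unadjusted p under 0.05 in these fits. The call of LCP1 was also lost under quantile normalization (adjusted p = 0.0531) and when dim genes were left out (adjusted p = 0.0515).

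The other genes of that list with the smallest p did not pass. TRIP6, a zyxin relative, read 385 and 359 untreated against 639 and 518 treated and had 0.63 ± 0.13 (SE, adjusted p = 0.0639, 0.0486 without probe sets whose suffix, s or x, marks several possible targets). With the mean of all its probe sets TRIP6 had 0.40 (adjusted p = 0.105). FSCN1 (fascin, which bundles filopodia) read 70.3 and 67.5 untreated against 94.2 and 95.4 treated and had 0.46 ± 0.10 (adjusted p = 0.0762). VASP, which extends filaments, had 0.41 ± 0.14. On the lower side stood FERMT2 (kindlin 2) at -0.33 ± 0.11, PTK2 (focal adhesion kinase) at -0.32 ± 0.10 and PDLIM3 at -0.30 ± 0.15, with adjusted p of 0.162, 0.175 and 0.35. The kinase and kindlin values thus lay opposite to those of TLN1, ZYX and TRIP6. Array intensities are averages over a culture. A change in the share of cells that make a transcript and a change per cell therefore cannot be told apart.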

How the data were processed

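RNA of untreated and TGF-beta treated Huh-7 cells was measured on 4 Affymetrix arrays, 2 per group. The authors deposited 1 linear intensity per probe set and array. Per the submitters' processing notes the affy package was used, but its settings are given in none of the sources used here. The deposited intensities had near-equal quartiles (lower 28.8 to 29.2, upper 305 to 308), so no scaling was added, and log2 was taken with no offset. Arrays have no read depth, so precision is limited by their number.

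Of 22215 probe sets, 19724 named 1 gene in an older platform annotation, whose symbols were brought up to date with Entrez numbers in RefSeq (GRCh38.p14). Of the rest, 568 named several genes and 1923 none. Groups were compared with limma 3.58.1 in R 4.3.3 (lmFit, eBayes, 7.41 degrees of freedom per gene, Benjamini-Hochberg over all genes). The procedure was also run on simulated independent arrays whose spread was drawn from the same fit. That run does not cover arrays that share a culture. A called gene has an adjusted p under 0.05. Unadjusted p are given as counts only. The members, roles and further list were chosen with earlier results of these data known. All measured members are named, with array values for up to 4 of each role with the smallest p and for the actins. Of the further list, the called genes, the 4 with the smallest p in each direction, RHOB, SRF and MYLK are named. The array values of CNN3, CALD1, LIMA1, PDLIM5, CAPZB and ARPC5, the values of MYL12B, ARPC1A and ARPC4, the paired ratios and the probe sets singled out were added after their values were seen. A planned comparison of protein sequences was not run. There were 11 alternatives. Figures and promoter searches used Python 3.11.15 with matplotlib 3.10.9.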

Additional observations from a re-analysis of the deposited data

How the results depend on the processing

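The median log2 fold change of the 41 members (0.10) stayed positive in all 11 alternatives: 0.14 under quantile normalization, 0.083 under median centring, 0.13 with dim genes left out (34 members), 0.067 without probe sets of the s or x kind (24 members), and 0.091 to 0.16 with 1 array left out. The replicate block, on the array number, cannot change a log2 fold change in this balanced design, so its median was fixed in advance. Of the alternatives that kept 2 arrays per group, only the replicate block gave members called at an adjusted p. Without untreated array 1 the log2 fold change of MYH9 was 0.64, in a fit that rests on 1 untreated array. With the array number as a replicate block, 4 were called higher (ACTN1, ACTN4, MYH9, PDLIM1) and 1 lower (PFN2). In that fit 3 members were lower at an unadjusted p under 0.05, where 1196 of the 12162 genes were. Of the further list that fit also called TRIP6 (adjusted p = 0.000473), FSCN1 (0.0147) and VASP (0.0402) higher. Over all genes that fit called 686 higher and 543 lower, against 80 and 69. The labels do not say that the numbers pair the arrays, and deviations of same-numbered arrays from their group means had a Pearson correlation of 0.0097 across genes, so the block was not used for the values reported.

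At an unadjusted p, the members higher were 6 of 24 without s or x probe sets (all genes 8.17%) and 4 to 11 of 41 with 1 array left out (all genes 5.46% to 10.3%). Those lower were 2 with an offset of 16, where 1159 of the 12162 genes were lower. With the mean of all probe sets there were 2 (1135 of the 12162 genes), and without s or x probe sets 0 of 24 (693 of 8505 genes).

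Of the 41 members, 24 kept their sign in every alternative that could be computed for them, and no member with an unadjusted p under 0.05 changed sign. The replicate block and leaving out dim genes cannot change the sign of a gene, so they are no check of it. With the mean of all probe sets, TPM1 gave -0.029, MYH10 -0.038, PDLIM5 -0.025 and CAPZB 0.033. Without s or x probe sets TPM1 gave -0.080 and ACTR3 0.022, and under median centring PXN gave -0.011. With 1 array left out, other signs also appeared for ACTA2 (-0.013 to 0.16), TPM2 (-0.0012 to 0.33), MYH10 (-0.047 to 0.25), CNN1 (-0.011 to 0.35), TAGLN (-0.015 to 0.22), VCL (-0.0091 to 0.33), PXN (-0.14 to 0.16), LIMA1 (-0.16 to 0.035), PDLIM5 (-0.024 to 0.21), PDLIM7 (-0.024 to 0.47), FHL2 (-0.039 to 0.35), CAPZB (-0.25 to 0.046), ARPC2 (-0.018 to 0.089), ARPC3 (-0.0064 to 0.10), ARPC5 (-0.038 to 0.11) and MYLK (-0.36 to 0.48). With their sign kept, 1 array moved the values of ACTB (0.00061 to 0.20), CNN2 (0.11 to 0.33), MYL9 (0.083 to 0.33), RDX (-0.35 to -0.14), VASP (0.26 to 0.55) and PDLIM3 (-0.52 to -0.089) by over 1.5 times, as it did those of some members near 0. The cause was not tested. Dim probe sets, 7 of the 41 (ACTA2, MYL9, CNN1, TAGLN, TLN1, PXN and MSN), limit what their values can show.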
